A study of Mus musculus with 20 samples.

Results

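Peaks were described at 10 genes that write, read, remove or supply the reactions of DNA methylation, or that are recurrently mutated in clonal hematopoiesis: Dnmt1, Dnmt3a, Dnmt3b, Tet1, Tet2, Tet3, Uhrf1, Asxl1, Idh1 and Idh2. They were taken by symbol from 21627 protein-coding genes on chromosomes 1 to 19 and X, and all 10 were found. For each gene, every peak within 1 kb of either annotated gene end or inside the gene body was collected from 12 peak lists, 1 per library.

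The cells were hematopoietic stem cells (HSC), the rare bone marrow cells that renew all blood lineages, sorted by flow cytometry from adult mice. All mice had received poly(I:C), an inducer of interferon. WT mice were Mx1-Cre-/-;mTORflox/flox, so they carried floxed Mtor alleles and no Cre. KO mice were Mx1-Cre+/-;mTORflox/flox, and KO MycHet mice were Mx1-Cre+/-;mTORflox/flox;c-Myc+/flox, with 1 floxed allele of c-Myc in addition. The Mx1 promoter answers to interferon and is active outside blood too, so Cre was not limited to HSC. ChIP-seq gave 1 WT and 1 KO library for each of 3 targets: H3K27ac, an acetylated histone of active promoters and enhancers; H3K4me3, a methylated histone found at promoters; and MYC, a transcription factor. ATAC-seq, which reads accessible DNA, gave 2 libraries for each of the 3 genotypes, from 50000 cells each per the labels. The labels do not say how many animals gave each library. RNA-seq samples of the series, 8 of 20, were not analysed here, so no transcript level is given.

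Cytosine methylation in mammals sits mostly on CpG dinucleotides. Dnmt3a and Dnmt3b set new marks, Dnmt1 copies them after replication at hemimethylated sites found by Uhrf1, and the Tet enzymes oxidize them in a reaction that uses alpha-ketoglutarate. Idh1 and Idh2 make alpha-ketoglutarate, and their mutant forms make 2-hydroxyglutarate, which inhibits Tet enzymes. DNMT3A, TET2 and ASXL1 are the genes most often mutated in human clonal hematopoiesis, and loss of Dnmt3a or Tet2 in mice is known to favour HSC self-renewal.

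No p-value is given: each ChIP-seq target had 1 library per genotype, and 2 ATAC-seq libraries against 2 cannot reach an exact two-sided permutation p under 0.33. Peaks are described as present or absent, with the score that the authors deposited for each peak. The scale of the score is not stated, and the lowest deposited score was 50. Lists held 10078 WT and 20036 KO peaks for H3K27ac, 15089 and 16019 for H3K4me3, and 8774 and 22086 for MYC. ATAC-seq lists held 17303 (WT 1), 66531 (WT 2), 19174 (KO 1), 72149 (KO 2), 47214 (KO MycHet 1) and 53722 (KO MycHet 2) peaks. Read depth is unknown, and a score or rank from lists of such unequal length shows no change between libraries. Mtor, the targeted gene, had a peak at its lower end in 5 of 5 WT libraries, 0 of 5 KO and 0 of 2 KO MycHet libraries. Of 28 HSC identity genes, 16 and 24 had an ATAC-seq peak at an end in WT 1 and WT 2, 13 and 27 in KO 1 and KO 2, and 25 and 24 in KO MycHet. H3K4me3 lay at 20 of them in WT and 15 in KO, H3K27ac at 5 and 11, and MYC at 2 and 6. In WT 1, WT 2, KO 1 and KO 2, ATAC-seq peaks also lay at ends of 1, 12, 0 and 13 of 14 myeloid markers. For erythroid markers the counts were 3, 9, 5 and 8 of 11, and for megakaryocyte markers 3, 8, 2 and 6 of 9. B cell markers had 1, 6, 0 and 6 of 12. T and NK markers had 1, 6, 3 and 6 of 13, and stromal and endothelial markers 1, 6, 3 and 5 of 10. In WT and KO, H3K4me3 lay at 7 and 5 of 11 erythroid, 2 and 3 of 12 B cell, and 4 and 3 of 9 megakaryocyte markers. It lay at 6 and 6 of 10 stromal and endothelial, 3 and 4 of 13 T and NK, and 5 and 4 of 14 myeloid markers. Erythroid marker genes had H3K27ac at 0 of 11 in WT and 5 in KO, B cell markers at 0 of 12 and 5, megakaryocyte markers at 0 of 9 and 3, stromal and endothelial markers at 0 of 10 and 2, T and NK markers at 1 of 13 and 2, and myeloid markers at 0 of 14 and 1. MYC lay at 0 and 5 of the erythroid, 0 and 1 of the B cell, 3 and 2 of the megakaryocyte, 0 and 2 of the stromal and endothelial, 2 and 3 of the T and NK, and 0 and 0 of the myeloid genes in WT and KO. Over all genes, the shares with a peak at an end in WT and KO were 14.6% and 39.6% for H3K27ac and 10.3% and 22.3% for MYC. For H3K4me3 they were 52.9% and 54.3%. ATAC-seq peaks lay at an end of 9671 and 14301 of the 21627 genes in WT 1 and WT 2. The counts were 9656 and 14214 in KO 1 and KO 2, and 13409 and 13474 in KO MycHet. The part of such genes in the results below was not tested.

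In 4 members, Dnmt1, Dnmt3a, Tet3 and Idh2, no RefSeq start with a peak lies within 1 kb of an annotated gene end, because the annotated gene reaches further upstream. Peaks were therefore also placed on RefSeq starts, taken as 250 bases before to 50 bases after each listed start, which 17273 of the genes have. The 10 members have 16 such windows. Of these, 6 are printed here from RefSeq (GRCm38.p6, the assembly of mm10), 5′ to 3′ on the strand of the gene. The first 3 were chosen for a hexamer of the MYC type in the window and a KO MYC peak on it (Uhrf1 and Idh1) or beside it (Dnmt3a). Capitals mark the hexamers CACGTG and CACGCG and the ETS-type hexamer CCGGAA, searched on both strands. A match on the opposite strand stands as its reverse complement, as TTCCGG does in Uhrf1.

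Uhrf1, downstream start, chr17:56304063-56304362, plus strand: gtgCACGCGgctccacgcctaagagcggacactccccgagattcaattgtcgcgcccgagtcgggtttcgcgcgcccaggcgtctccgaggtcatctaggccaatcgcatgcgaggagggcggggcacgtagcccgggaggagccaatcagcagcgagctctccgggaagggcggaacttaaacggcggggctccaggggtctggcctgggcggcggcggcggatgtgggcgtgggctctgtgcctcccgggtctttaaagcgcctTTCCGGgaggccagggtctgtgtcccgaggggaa
Idh1, upstream start, chr1:65186430-65186729, minus strand: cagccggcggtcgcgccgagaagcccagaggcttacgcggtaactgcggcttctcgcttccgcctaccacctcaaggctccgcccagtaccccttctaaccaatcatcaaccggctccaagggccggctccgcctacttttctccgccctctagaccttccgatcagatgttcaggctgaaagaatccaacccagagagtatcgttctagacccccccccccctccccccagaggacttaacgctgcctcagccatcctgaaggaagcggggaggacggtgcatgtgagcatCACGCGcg
Dnmt3a, internal start, chr12:3891494-3891793, plus strand: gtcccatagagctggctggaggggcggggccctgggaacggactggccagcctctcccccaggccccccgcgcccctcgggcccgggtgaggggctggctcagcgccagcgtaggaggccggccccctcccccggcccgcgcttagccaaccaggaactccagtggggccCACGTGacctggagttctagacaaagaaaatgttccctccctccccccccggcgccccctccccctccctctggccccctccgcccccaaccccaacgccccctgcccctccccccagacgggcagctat

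The next 3 are a Dnmt1 start with called peaks, a Dnmt1 start with none, and the Tet2 start. Capitals mark every CpG in them.

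Dnmt1, internal start, chr9:20952574-20952873, minus strand: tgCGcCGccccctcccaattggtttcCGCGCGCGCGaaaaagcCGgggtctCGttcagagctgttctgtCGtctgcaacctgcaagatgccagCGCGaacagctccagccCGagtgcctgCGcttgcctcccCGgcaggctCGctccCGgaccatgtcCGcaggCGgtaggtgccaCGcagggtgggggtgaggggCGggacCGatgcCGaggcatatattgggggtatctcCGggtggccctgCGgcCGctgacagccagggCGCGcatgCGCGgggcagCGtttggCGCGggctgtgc
Dnmt1, upstream start, chr9:20959839-20960138, minus strand: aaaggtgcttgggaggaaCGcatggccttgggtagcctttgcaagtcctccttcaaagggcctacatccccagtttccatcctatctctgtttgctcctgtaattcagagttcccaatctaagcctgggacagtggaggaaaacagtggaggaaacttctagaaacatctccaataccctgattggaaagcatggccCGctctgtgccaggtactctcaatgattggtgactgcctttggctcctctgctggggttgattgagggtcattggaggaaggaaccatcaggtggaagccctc
Tet2, start, chr3:133544341-133544640, minus strand: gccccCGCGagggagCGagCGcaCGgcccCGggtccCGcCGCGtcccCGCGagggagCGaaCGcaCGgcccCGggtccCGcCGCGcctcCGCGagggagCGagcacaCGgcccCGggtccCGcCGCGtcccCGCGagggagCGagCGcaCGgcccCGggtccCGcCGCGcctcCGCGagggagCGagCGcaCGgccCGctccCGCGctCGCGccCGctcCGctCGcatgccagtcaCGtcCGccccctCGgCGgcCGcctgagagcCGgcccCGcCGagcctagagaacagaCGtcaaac

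Counting the first base of the start as position 1 and the base before it as -1, the Uhrf1 window has CACGCG at -247 and CCGGAA at 17, the Idh1 window has CACGCG at 43 and the Dnmt3a window has CACGTG at -80. The Asxl1 window has CACGCG at 19 and CCGGAA at -109, with no MYC peak on it in either genotype. These are 1 window with CACGTG, 3 with CACGCG, 2 with CCGGAA and 0 with the GATA-type hexamer GATAAG among the 16 member windows. Over all 21044 windows the shares were 7.91% for CACGTG, 12.3% for CACGCG, 18.9% for CCGGAA and 6.95% for GATAAG, and over the 10701 windows with H3K4me3 in WT and KO they were 10.5%, 19.1%, 30.7% and 4.45%. None of the Dnmt1 windows held CACGTG or CACGCG, although the highest-scoring KO MYC peak on a member start (126) was at Dnmt1. The upstream Uhrf1 window, under the KO MYC peak as well, also held neither. A match describes the letters only and is no bound site.

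All 10 members had H3K4me3 on a RefSeq start in both WT and KO, against 53.8% of genes in WT and 55.2% in KO. The mark is known at promoters that are poised as well as in use, and no transcript was measured here. H3K4me3 on a start in KO only was found for 0 members (background 2.70%) and in WT only for 0 (1.33%). At gene ends, H3K4me3 lay at 7 members in WT (52.9% of genes) and at the same 7 in KO (54.3%), with 0 in KO only (2.95%) and 0 in WT only (1.52%). The 3 without it at an end were Dnmt1, Dnmt3a and Idh2, which had it on an internal start. Along the 10 genes there were 14 regions of H3K4me3, and all 14 were present in both genotypes.

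H3K4me3 peaks were wider in KO at 13 of the 14 regions, where 90.3% of the 13792 peaks that paired 1 to 1 between the lists were wider in KO. The median ratio of KO to WT width was 1.25 in the members and 1.23 over all pairs, so the members follow the lists as a whole. The Tet3 RefSeq start had the highest ratio, 1.85, with 1147 bp in WT and 2123 bp in KO. The 5′ end of Tet1 was the exception, with 3326 bp in WT and 2990 bp in KO. The widest peak of the set was at Asxl1, 5438 bp in WT and 7197 bp in KO.

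H3K27ac lay on a start of 1 member in WT, Dnmt3a, and of 5 in KO, Dnmt1, Dnmt3a, Tet2, Uhrf1 and Idh2. The share of all genes was 10.4% in WT and 37.3% in KO. Thus 4 members had it in KO only (27.4% of genes) and 0 in WT only (0.457%). MYC lay on a start of 0 members in WT (7.29% of genes) and 3 in KO, Dnmt1, Uhrf1 and Idh1 (18.3%), all 3 in KO only (12.3%), with 0 in WT only (1.33%). At gene ends the H3K27ac counts were 0 in WT (14.6%), 3 in KO (39.6%), the same 3 in KO only (25.8%), namely Tet2, Tet3 and Uhrf1, and 0 in WT only (0.768%). MYC at gene ends was found for 0 members in WT (10.3%), 2 in KO (22.3%) and the same 2 in KO only (14.4%), Uhrf1 and Idh1, and 0 in WT only (2.35%).

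Since every member had H3K4me3 on at least 1 start, the nearer comparison is with the 9063 genes that had H3K4me3 on a start in both genotypes. There, H3K27ac was on a start of 19.0% in WT, 68.3% in KO and 50.0% in KO only, beside 1, 5 and 4 of the 10 members. MYC was on 13.1%, 33.3% and 22.5%, beside 0, 3 and 3. Both together in KO only were found for 13.7% of these genes and for 2 members, Dnmt1 and Uhrf1. When the lists of each target were trimmed to equal numbers of their highest-scoring peaks, H3K27ac in KO only was found for 39.4% of these genes and 2 members (Tet2 and Uhrf1), and in WT only for 1.75% and 0. MYC in KO only was then found for 10.2% and 2 members (Dnmt1 and Uhrf1), and in WT only for 4.99% and 0. Member counts this small lie near the background throughout, and nothing is read from them about the set as a whole.

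**Figure D1:**
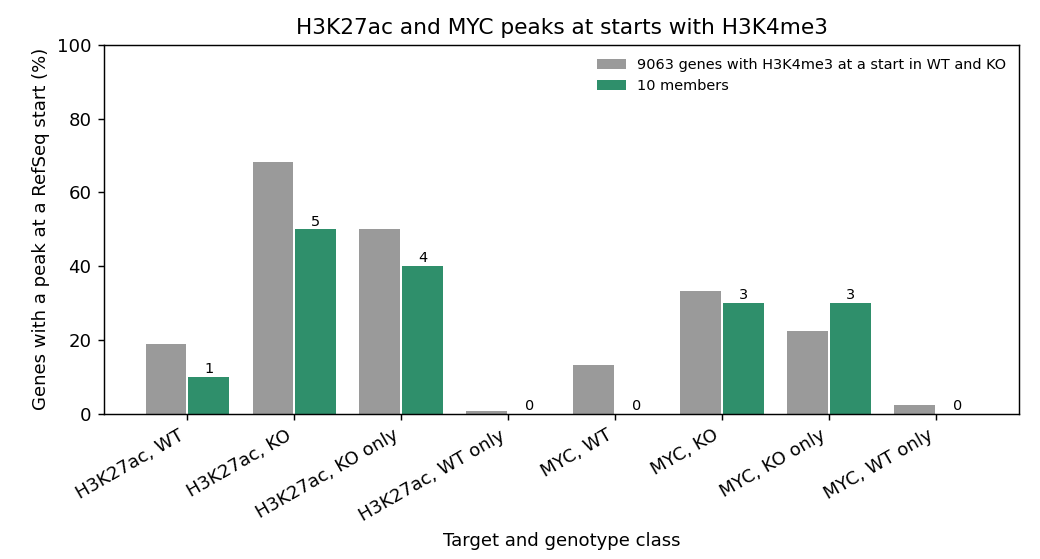
Share (%) of genes with an H3K27ac or MYC peak on a RefSeq start among the 9063 genes with H3K4me3 on a start in WT and KO (grey) and among the 10 members (green, with the number of members above each bar), by target and genotype class. The members stand at 5 of 10 for H3K27ac in KO beside 68.3% of the genes, and at 3 of 10 for MYC in KO only beside 22.5%.

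ATAC-seq peaks lay on a start of 9 members in both WT libraries (45.0% of genes), 8 in both KO libraries (44.6%), 10 in both KO MycHet libraries (58.6%) and 8 in all 6 libraries (40.3%). Tet1 lacked the peak in the WT 1 and KO 1 lists and Dnmt3b in the KO 1 list, which are the 2 shortest. Without these 2 lists, all 10 members had a start peak in every ATAC-seq library. With each list trimmed to its 17303 highest-scoring peaks, Tet1 and Dnmt3b kept theirs in WT 2, KO 2 and both KO MycHet libraries, while Tet3 lost its start peak in KO 2. The labels describe WT 1 and KO 1 by an extraction text that names those 2 genotypes, and the other 4 libraries by one that names all 3. Within the first set, 9 members had a start peak in WT and 8 in KO, and within the second 10 in WT, 10 in KO and 10 in both KO MycHet libraries. No member had an ATAC-seq peak on a start in both KO libraries and neither WT library (0.0174% of genes) or the reverse (0.0232%). At gene ends the counts were 6 in WT (44.6%), 5 in KO (44.6%), 7 in KO MycHet (59.9%) and 5 in all 6 (40.0%), with 0 in KO only (0.0277%) and 0 in WT only (0.0231%).

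**Figure D2:**
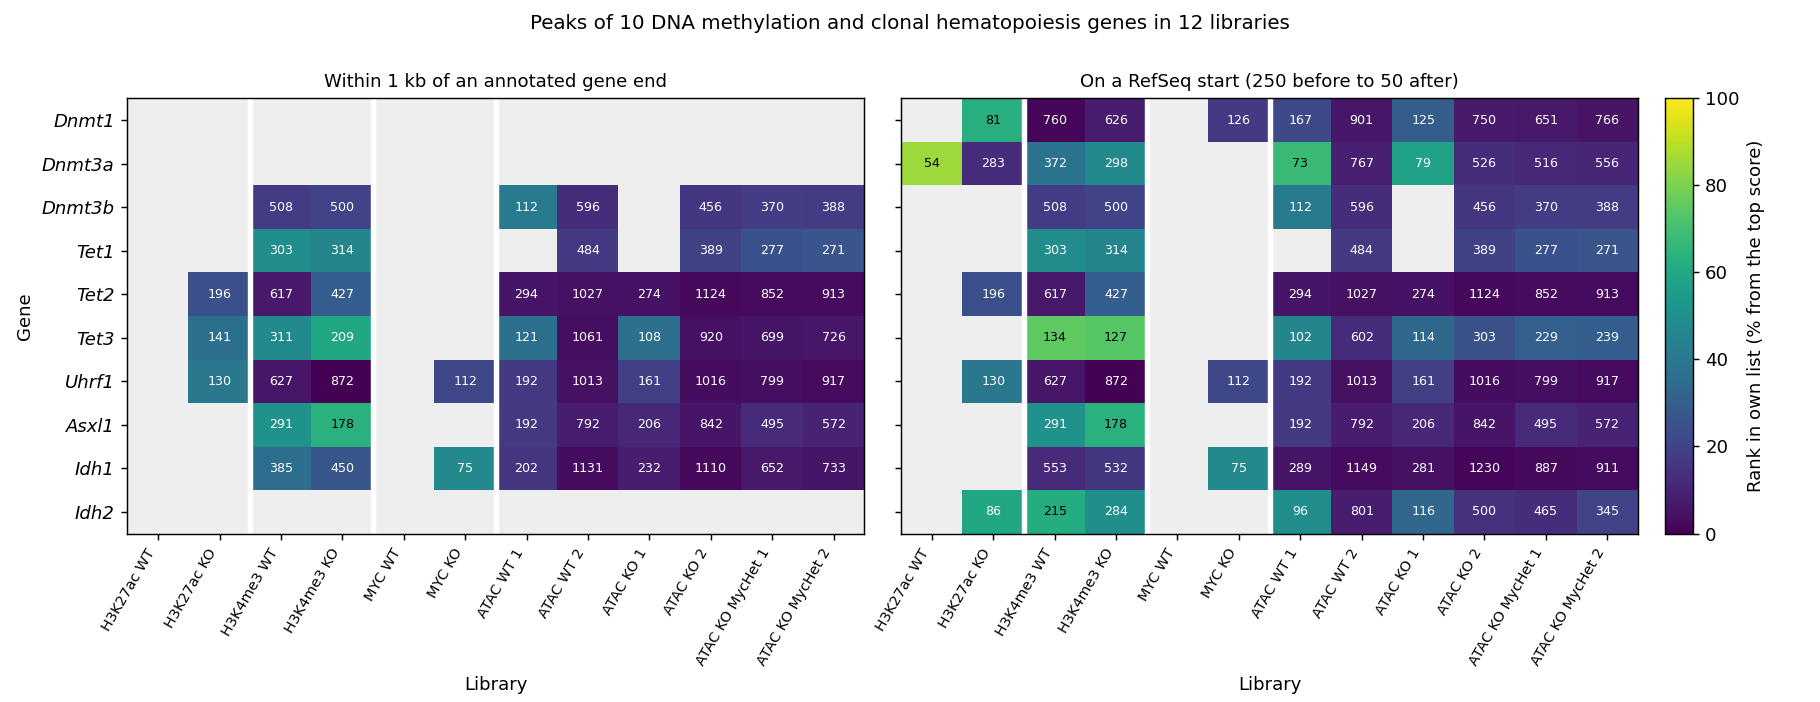
Peaks of the 10 genes (rows) in 12 libraries (columns), within 1 kb of an annotated gene end (left) and on a RefSeq start (right). Numbers are the highest deposited score of such a peak, colours its rank within its own list in percent from the top, and grey cells have no peak. H3K4me3 fills both of its columns on the right for all 10 genes, while H3K27ac has 1 gene in WT and 5 in KO and MYC has 0 and 3.

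The maintenance pair, Dnmt1 and Uhrf1, had the same pattern on their starts, with peaks in 10 of 12 libraries and none in the WT lists of H3K27ac and MYC. Each had this pattern in common with 1116 other genes, 6.46% of those with a RefSeq start. Dnmt1 (chr9:20907206-20959888 in mm10, as all positions here, minus strand) encodes the methyltransferase that copies methylation at replication. Its RefSeq starts lie 0, 6.909 and 7.265 kb inside the annotated 5′ end. The outermost start, with 2 CpG in its 300 bases, had no peak in any of the 12 libraries, and the innermost, with 33 CpG, lay under peaks of 10. The middle start, with 12 CpG, lay under peaks of the same 10 libraries, and the median over all windows was 13 CpG. Dnmt1 is known to have an oocyte promoter upstream of the somatic one, and the table used does not say which start is which.

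Across the internal Dnmt1 starts, H3K4me3 scored 759.9 in WT, in the top 1.63% of its list, and 626 in KO, in the top 7.49%. H3K27ac was called in KO only, with a peak of 2532 bp that scored 80.5 and ranked in the lower part of its list, at 63.2% from the top. MYC was called in KO only, with a peak of 730 bp that scored 126, at 16.6% from the top. ATAC-seq peaks there scored 167 in WT 1, 901 in WT 2, 125 in KO 1, 750.1 in KO 2, 651 in KO MycHet 1 and 766 in KO MycHet 2. The start was thus open in every genotype, with the lower scores in the shorter lists of each. A second H3K27ac site lay 1.324 kb upstream of the annotated 5′ end in WT, with a score of 55.2, and 1.176 kb upstream in KO, with 100.3. It is outside the 1 kb window and overlapped no start of the gene. Weak sites inside the gene, 43.5 and 13.2 kb from the 5′ end, had ATAC-seq peaks of at most 96.8 in 3 libraries and 1 library.

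Uhrf1 (chr17:56303337-56323486, plus strand) encodes the reader that brings Dnmt1 to hemimethylated CpG. Its starts lie at 0 and 0.976 kb, and 1 set of peaks covered both. H3K4me3 scored 627 in WT, in the top 6.24%, and 872 in KO, in the top 0.518% of the list. H3K27ac (score 130.4, 1669 bp) and MYC (112, 1198 bp) were called in KO and not in WT. ATAC-seq peaks scored 79.0 and 192 in WT 1, 1013 in WT 2, 161 in KO 1, 1016 in KO 2, 799 in KO MycHet 1 and 917 in KO MycHet 2. In WT 1 the outer and the inner start had separate peaks, and KO 1 had a peak over the inner start alone. Beyond the 3′ end, at the neighbouring histone demethylase gene Kdm4b, MYC was called in WT (75.6, 2.235 kb away) as well as in KO (175, 1.925 kb away). The WT list therefore held a MYC peak near Uhrf1, though not on it.

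**Figure D3:**
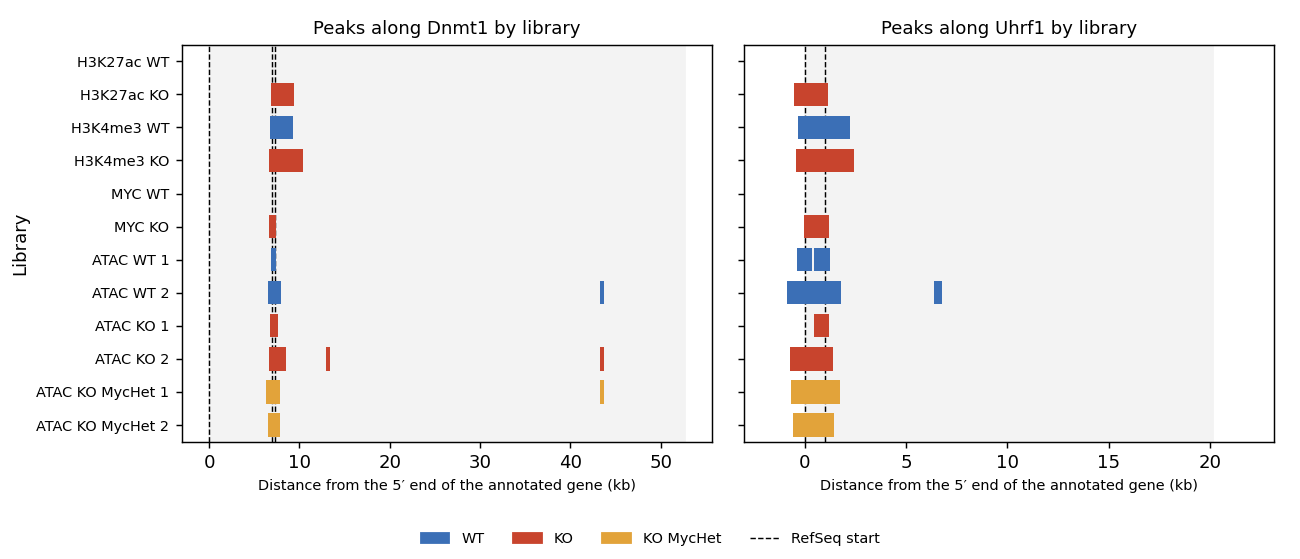
Peaks along Dnmt1 (left) and Uhrf1 (right) in each library, by distance in kb from the 5′ end of the annotated gene. Bars span each peak and are coloured by genotype, the shaded band is the gene and dashed lines are RefSeq starts. Peaks of 10 libraries stack over the internal Dnmt1 starts at 6.909 and 7.265 kb, and none lies at 0.

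Of the de novo enzymes, Dnmt3a (chr12:3801559-3914443, plus strand) had the most peaks, 55 in 11 regions, and none within 1 kb of a gene end. Its starts lie at 5.421, 5.601 and 90.185 kb. Dnmt3a is known to have an internal promoter that gives a shorter protein, Dnmt3a2, although the table does not name the product of each start. The outer pair of starts carried H3K4me3 (372 in WT and 298 in KO) and ATAC-seq peaks in all 6 libraries (72.5, 767, 78.6, 526, 516 and 556 for WT 1, WT 2, KO 1, KO 2 and both KO MycHet), with no H3K27ac or MYC in either genotype.

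The internal start of Dnmt3a differed from the outer pair in carrying H3K27ac in both genotypes, and it was the one member start with H3K27ac in WT. In WT there were 2 narrow peaks, of 480 bp (score 53.7) on the start and 431 bp (57.9) beyond it, and in KO a single peak of 2252 bp (283) spanned both. The KO peak was in the top 12.99% of its list and the WT peaks at 85.3% and 72.1% from the top. H3K4me3 scored 333 and 268 in WT and KO. MYC had a KO peak of 496 bp (61.8) that ended 0.514 kb before the first base of the start and so did not count as on it. ATAC-seq peaks scored 60.9 and 397 in WT, were absent and 399 in KO, and scored 195 and 269.7 in KO MycHet. WT 1 and KO 1, the short lists, had the lowest score and the missing peak.

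Between the starts, 2 sites inside Dnmt3a were open in all 6 ATAC-seq libraries and had opposite MYC calls. At the site about 54.5 kb from the 5′ end (chr12:3855004-3857028), ATAC-seq scores were 133 and 1196 in WT, 151 and 911 in KO, with 859 and 961 in KO MycHet. H3K27ac was called there in WT (68.1) and KO (81.2), and MYC in WT only (92.02). At the site about 69.8 kb away (chr12:3870593-3872151), ATAC-seq scores were 165 and 784 in WT, 259.6 and 737 in KO, with 639 and 711 in KO MycHet. There H3K27ac (115) and MYC (125) were both called in KO only. The KO MYC peak had rank 3714 and the KO H3K27ac peak rank 9157, so both would stay in lists cut to the 8774 and 10078 peaks of WT. At the 54.5 kb site the KO H3K27ac peak had rank 12567 and would leave such a list. MYC calls inside the gene thus differed in both directions.

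These 2 sites and one in Tet3 were the only member sites among 1929 sites inside genes, away from ends and starts, that were open in all 6 libraries. Over the 1929 sites, H3K27ac in KO only was found at 34.3% and in both genotypes at 19.2%. MYC in KO only was found at 14.6% and in WT only at 8.45%. The combination at the 69.8 kb site, both in KO only, was found at 5.13% of them. The combination at the 54.5 kb site, H3K27ac in both and MYC in WT only, was found at 2.18%. The Tet3 site, about 75.2 kb from the 5′ end, had no ChIP-seq peak and ATAC-seq scores of 60.2 and 997 in WT, 112 and 533 in KO, with 366 and 416 in KO MycHet.

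Further sites in Dnmt3a were found in the longer ATAC-seq lists only. Those at about 22.1 and 33.3 kb had peaks in WT 2, KO 2 and both KO MycHet libraries, with scores of 215 to 389 and 308 to 600.4. The site at 60.6 kb, near one end of the noncoding RNA gene Dnmt3aos, had scores of 74.8 to 204 in the same 4 libraries. A KO MYC peak at 17.6 kb (62.2) overlapped no peak of any other library.

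**Figure D4:**
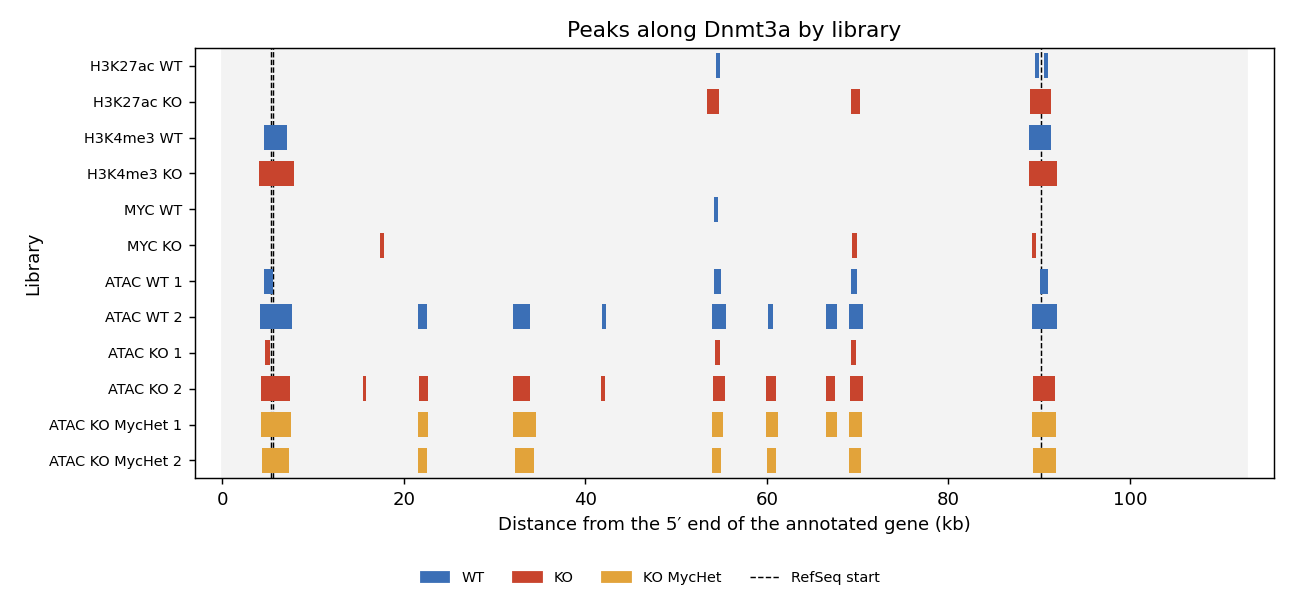
Peaks along Dnmt3a in each library, by distance in kb from the 5′ end of the annotated gene. Bars span each peak and are coloured by genotype, the shaded band is the gene and dashed lines are RefSeq starts. H3K27ac is absent from the starts near 5.421 kb and present at 90.185 kb in WT and KO, and the MYC bars lie at 54.4 kb in WT and at 17.6, 69.6 and 89.4 kb in KO.

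Dnmt3b (chr2:153649411-153687730, plus strand), the second de novo enzyme, was marked at its 5′ end by H3K4me3 (508 in WT and 500.2 in KO) and had no H3K27ac peak in either genotype. ATAC-seq peaks there scored 112 and 596 in WT, were absent from KO 1 and scored 456 in KO 2, and scored 370.2 and 388 in KO MycHet. Its MYC peak was a narrow one of 319 bp inside the gene at 19.6 kb in KO (55.5), with an ATAC-seq peak in KO MycHet 1 alone (51.7).

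Among the dioxygenases, which oxidize methylated cytosine, Tet2 (chr3:133463677-133545136, minus strand) had the most CpG in its start window of the set, 57 in 300 bases, at percentile 99.8 of all windows. Its 5′ end had H3K27ac in KO only, with a peak of 4114 bp (196, top 24.5%) that lay within the KO H3K4me3 peak. H3K4me3 scored 617 with 3990 bp in WT and 427 with 5368 bp in KO. ATAC-seq peaks scored 294 and 1027 in WT, 274 and 1124 in KO, with 852 and 913 in KO MycHet, in the top 5.51% of every list. No MYC peak lay at either end of Tet2, and 1 lay inside at 31.9 kb in KO (57.4). The 3′ end had ATAC-seq peaks alone, of 50.4 and 246 in WT, none and 261 in KO, with 126 and 118 in KO MycHet. Those at 18.98 and 14.2 kb inside the gene appeared in the 4 longer lists with scores of 53.8 to 206 and 59.1 to 116.

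Tet3 (chr6:83362373-83457208, minus strand) had the one region of the set with a peak in all 12 libraries, at its 5′ gene end. H3K27ac scored 54.3 in WT with 432 bp and 141 in KO with 2761 bp. Only the KO peak reached the 1 kb window, so the KO-only call of Tet3 at gene ends rests on the narrow WT peak lying just outside it. MYC peaks of 309 bp in WT (51.9) and 723 bp in KO (56.9) lay in the same place, about 1.6 kb inside the gene. H3K4me3 there scored 311 and 209, and ATAC-seq peaks scored 121 and 1061 in WT, 108 and 919.6 in KO, with 699 and 726 in KO MycHet. The listed RefSeq start, 15.53 kb inside the gene, had weaker H3K4me3 (134 and 127). The lower end of the noncoding RNA gene B230319C09Rik, at position 83441755, lies inside that start window. Peaks on the start cannot be told apart between Tet3 and B230319C09Rik. A KO MYC peak (79.0) lay 0.418 kb from that start. ATAC-seq peaks on it scored 102 and 602 in WT, 114 and 303 in KO, with 229 and 239 in KO MycHet. A site at 44.0 kb had H3K27ac in KO only (80.2) and MYC in WT only (53.4), with ATAC-seq peaks in the 4 longer lists of 95.2 to 252.

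Tet1 (chr10:62804570-62887469, minus strand) had no H3K27ac peak anywhere in the gene in either genotype. Its 5′ end had H3K4me3 (303 in WT and 314 in KO) and ATAC-seq peaks of 484 in WT 2, 389 in KO 2 and 277 and 271 in KO MycHet, and none in WT 1 or KO 1. A second H3K4me3 region lay 22.7 kb inside the gene, where no RefSeq start is listed and the noncoding RNA gene Gm51805 has an end, with scores of 279 and 268. ATAC-seq peaks over it scored 533 in WT 2, 51.2 in KO 1, 349 in KO 2, and 146 and 239.6 in KO MycHet, with none in WT 1. Its MYC peak was in WT only, at 32.9 kb (55.6), and overlapped no other peak.

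**Figure D5:**
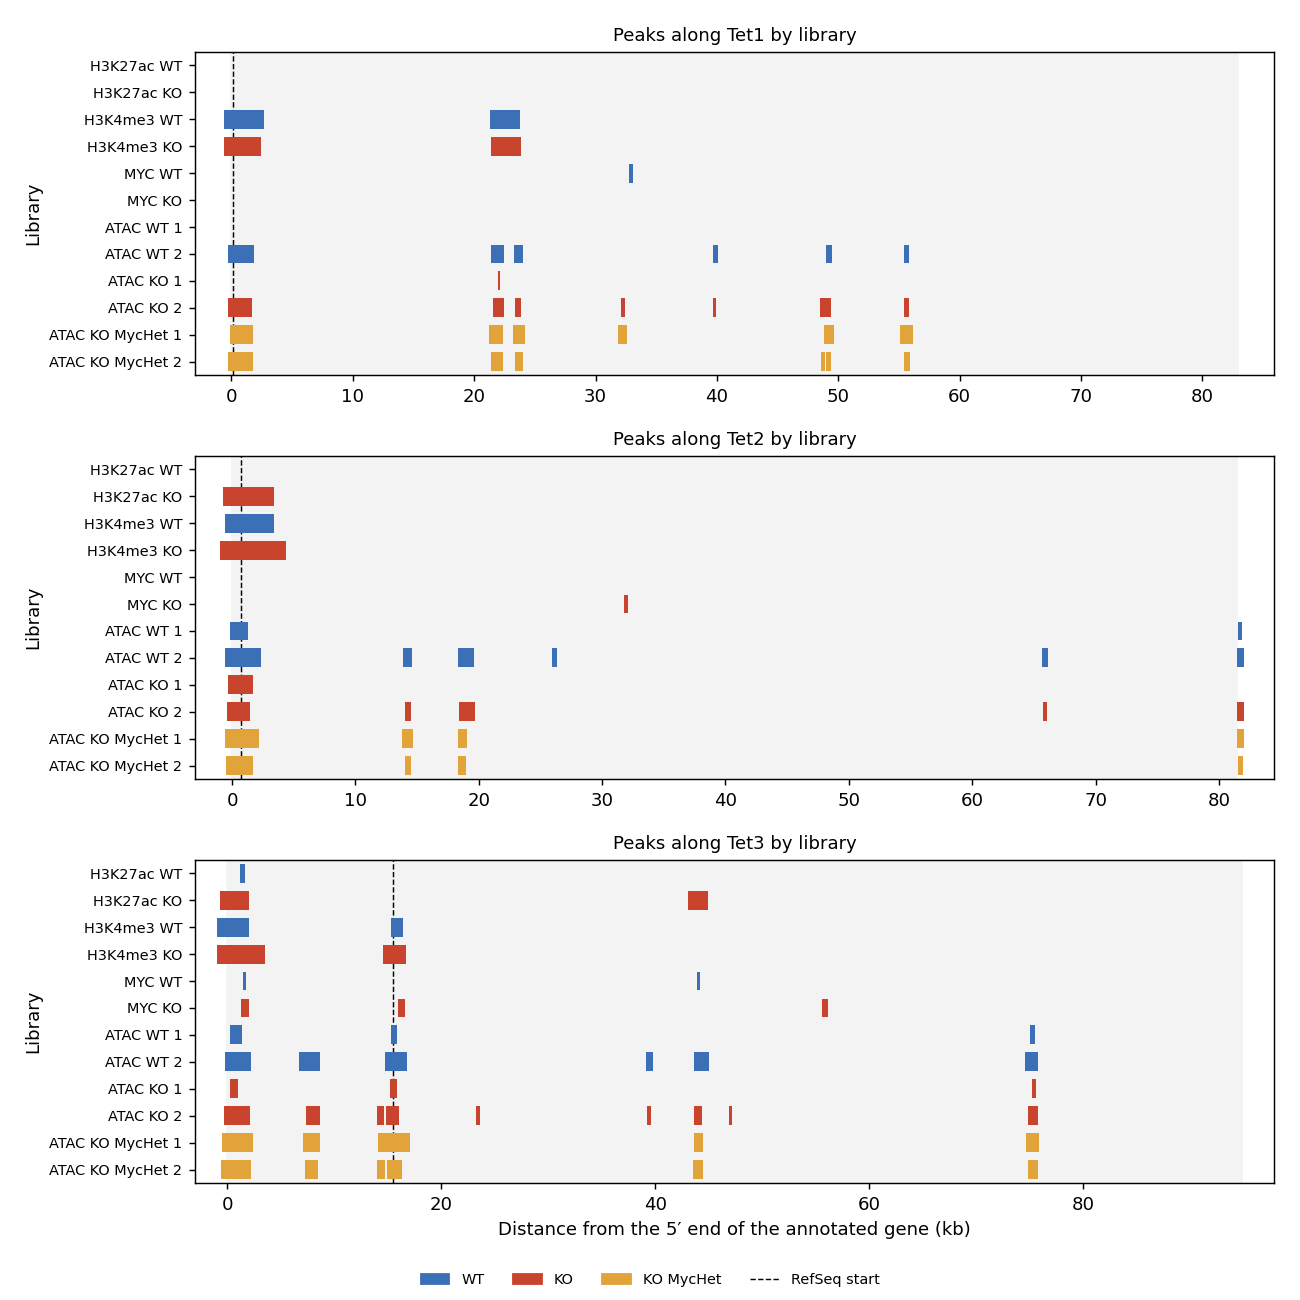
Peaks along Tet1, Tet2 and Tet3 in each library, by distance in kb from the 5′ end of the annotated gene. Bars span each peak and are coloured by genotype, the shaded band is the gene and dashed lines are RefSeq starts. H3K27ac is empty for Tet1, has 1 KO bar at the Tet2 5′ end and has a narrow WT and a wide KO bar at the Tet3 5′ end.

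Asxl1 (chr2:153345830-153404007, plus strand), a subunit partner of the deubiquitinase Bap1 that acts on histone H2A, had H3K4me3 at its 5′ end (291 in WT and 178 in KO) and no H3K27ac in either genotype. ATAC-seq peaks on the start scored 192 and 792 in WT, 206 and 842 in KO, with 495 and 572 in KO MycHet. A second open site about 5 kb inside the gene had ATAC-seq scores of 241 in WT 2, 374 in KO 2, and 158 and 209 in KO MycHet. A KO MYC peak of 892 bp (65.6) lay at that second site, within the KO H3K4me3 peak. The noncoding RNA gene 2500004C02Rik has an end at the Asxl1 start, and peaks there cannot be told apart between the pair.

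Idh1 (chr1:65158616-65186479, minus strand), the cytosolic isocitrate dehydrogenase, had H3K4me3 at 2 starts. The upstream start, which lies within 1 kb of the end of the neighbouring gene Pikfyve, scored 385 in WT and 450.0 in KO, and the start at 7.337 kb scored 553 and 532. MYC was called at the upstream start in KO only, with 655 bp (75.4), overlapping the window printed above. The lower end of Pikfyve, at position 65186640, lies inside that MYC peak. Peaks at this start cannot be told apart between Idh1 and Pikfyve. H3K27ac was called in KO only, with 1003 bp (91.4), 0.701 kb from the other start. The KO peaks of MYC and H3K27ac in Idh1 therefore lay at different starts. ATAC-seq peaks at the upstream start scored 202 and 1131 in WT, 232 and 1110.4 in KO, with 652 and 733 in KO MycHet. Those at the inner start scored 289 and 1149 in WT, 281 and 1229.8 in KO, with 887 and 911 in KO MycHet, in the top 5.85% of every list.

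Idh2 (chr7:80094845-80118608, minus strand), the mitochondrial enzyme, had its peaks at the start 3.258 kb inside the gene and none within 1 kb of an end. H3K27ac was called there in KO only (86.1, 2110 bp), and no MYC peak lay in the gene in either genotype. H3K4me3 scored 215 in WT and 284 in KO. ATAC-seq peaks scored 96.3 and 801 in WT, 116 and 500.3 in KO, with 465 and 345 in KO MycHet.

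Over all 10 genes the peaks fell into 47 regions. H3K27ac was called in 3 of them in WT and 10 in KO, 3 in both, 0 in WT only and 7 in KO only. MYC was called in 4 in WT and 12 in KO, 1 in both, 3 in WT only and 11 in KO only. ATAC-seq peaks lay in 43 regions, 13 of them in all 6 libraries, and no region had a peak in both libraries of KO and neither of WT or the reverse. The ATAC-seq peaks in the genes numbered 17 and 38 in WT, 14 and 42 in KO, with 34 and 31 in KO MycHet, fewest in the 2 short lists. All 7 regions with H3K27ac in KO only had an ATAC-seq peak in at least 1 WT library. So did 7 of the 11 regions with MYC in KO only, the others being Dnmt3a at 17.6 kb, Dnmt3b at 19.6 kb, Tet2 at 31.9 kb and Tet3 at 55.9 kb. For these region counts no share over all genes was computed. The KO lists were longer than the WT lists, with 20036 against 10078 peaks for H3K27ac and 22086 against 8774 for MYC. No gain at the members is therefore read from the region counts.

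Presence over the 12 libraries paired other members too. On RefSeq starts, Tet2 and Idh2 had the same pattern, without MYC and without WT H3K27ac, which 11.9% of genes with a RefSeq start had (Ahcy, Apobec3 and Brcc3 among the related genes). Tet3 and Asxl1 shared H3K4me3 and ATAC-seq peaks with no H3K27ac or MYC, as did 7.44% of them (Gadd45g, Got2 and Jak2). The patterns of Idh1 (0.944%, with Ahcyl2), Dnmt3b (1.56%), Dnmt3a (2.18%, with Apobec1, Nras and Prpf8) and Tet1 (3.13%, with Cux1, Nthl1 and Ung) were less common. Those of Dnmt3b and Tet1 differ from that of Tet3 and Asxl1 only by calls missing from the short ATAC-seq lists. These are KO 1 for Dnmt3b, and WT 1 and KO 1 for Tet1. That of Dnmt3a rests on a WT H3K27ac score of 53.7, where the lowest deposited score was 50. Measured at gene ends, Tet2 and Tet3 had the same pattern, each in common with 2137 other genes, and Dnmt1, Dnmt3a and Idh2 shared the empty pattern.

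Genes that act with the members were counted from 6 lists of 123 genes together, in which a few genes stand on 2 lists. At gene ends, H3K27ac lay at 42 of the 123 in WT, 94 in KO, 54 in KO only and 2 in WT only, and MYC at 19, 49, 33 and 3. The shares of all genes were 14.6%, 39.6%, 25.8% and 0.768% for H3K27ac and 10.3%, 22.3%, 14.4% and 2.35% for MYC. H3K4me3 lay at 111 in WT and 109 in KO (52.9% and 54.3% of all genes), and 93 had ATAC-seq peaks in all 6 libraries (40.0%). Most of the listed genes thus had H3K4me3, and among the 11106 genes with H3K4me3 at an end in both genotypes, H3K27ac in KO only was found for 46.7% and MYC in KO only for 24.8%. The counts per list below take in listed genes without H3K4me3 too. They are to be read beside these 2 shares and beside the shares of all genes, 25.8% and 14.4%, and no test of a list was made. MYC in KO only was found for 9 of 23 genes of alpha-ketoglutarate metabolism and 7 of 15 genes that supply S-adenosylmethionine, the methyl donor, and for 5 of the 11 erythroid markers. Of these 11 markers, 5 had H3K4me3 at an end in both genotypes.

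Among the 20 partners and readers of DNA methylation, 11 had H3K27ac in KO only and 3 had MYC in KO only. They included Mbd1 (H3K27ac 325), a reader of methylated CpG, and Uhrf2 (304), a relative of Uhrf1. Pcna, the replication clamp that Dnmt1 binds, had MYC in KO only (107), while Trdmt1, a relative of the Dnmt genes that methylates transfer RNA, had H3K27ac in WT only (51.1). Of the 20 genes of demethylation and base repair, 6 had H3K27ac in KO only and 6 MYC in KO only. Ogt, a glycosyltransferase that binds Tet proteins, had MYC in KO only (129.6), as did the repair endonuclease gene Apex1 (110.0). Gadd45b and Gadd45g, growth arrest genes linked to demethylation, had MYC in WT only (96.7 and 75.7).

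Of 38 further genes of clonal hematopoiesis and myeloid cancer, 14 had H3K27ac in KO only and 8 MYC in KO only. Ptpn11, which encodes the phosphatase Shp2, and Kmt2c, a histone methyltransferase gene, had both (H3K27ac 274 and 357, MYC 122 and 115). The Bap1 complex list of 11 genes had 2 and 2, with Foxk2 (H3K27ac 179) among them. Of the 23 genes of alpha-ketoglutarate metabolism, 14 had H3K27ac in KO only. Sdhd, a subunit of succinate dehydrogenase, had both (H3K27ac 269.8, MYC 131), and Idh3a (268) and Idh3g (114) encode subunits of the third isocitrate dehydrogenase, with H3K27ac and MYC in turn. Glud1, glutamate dehydrogenase, had MYC in WT only (53.4). Of the 15 genes of methyl donor supply, 8 had H3K27ac in KO only. Among them, Ahcy (H3K27ac 285) removes S-adenosylhomocysteine, the product of every such methyl transfer.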

How the data were processed

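The 12 peak lists give, per peak, a chromosome, start, end, a name of the form of the MACS peak caller and a score. The score column is as the authors deposited it, and its scale is not stated. Peaks were called per library. The submitters' processing notes name the mm10 build and the tools CASAVA, TopHat and Cufflinks. Not given in the sources used here are the aligner, the peak caller's version and settings, any input control and any shift of ATAC-seq reads. BED starts were taken as counting from 0. Peaks on Y were left out.

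Gene ends came from RefSeq GRCm38.p6, and start windows from its promoter table, with strand. An overlap of 1 bp counted. ATAC-seq counted as present in a genotype only when both libraries had the peak. KO only means a KO peak and no WT peak. Regions are peaks of all libraries that chain by overlap. Counts were checked against bedtools 2.31.1, and tables made with Python 3.11.15 and pandas 2.3.3. The counting was tested on simulated peaks. Members and lists were chosen with earlier results of these data known. Start windows served as an alternative at gene ends, and the other results on starts, on peak widths and on genes with H3K4me3 at an end were added after the data were seen. Named were all members, the highest-scoring genes of each list (at most 3 with KO-only and 2 with WT-only peaks), of which the text gives a part, genes with a member's pattern (up to 3 in alphabetical order) and neighbours with an end under a member peak. Kdm4b and the targeted gene Mtor were named beyond this. With no genome sequence in use, the letters of sites inside genes are not printed.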

Additional observations from a re-analysis of the deposited data

How the results depend on the processing

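Of 171 values of 38 counts recomputed under other settings, 146 stayed close and 25 moved. Close took in shifts such as from 3 members to 2 or from 7 to 10, and a count of 0 was close only to 0. At gene ends, a window of 2.5 kb gave 2 members with H3K27ac in WT (Dnmt1 and Tet3) where 1 kb gave 0, 3 with MYC in WT (Dnmt3a, Tet3 and Uhrf1) where it gave 0, 1 with MYC in KO only where it gave 2, and 1 with MYC in WT only where it gave 0. Placing peaks by midpoint gave H3K4me3 at 4 members in WT and 3 in KO where overlap gave 7 and 7, with 1 in KO only and 2 in WT only where it gave 0. A score of at least 100, or equal numbers of peaks, left MYC at 1 member (Uhrf1) in KO and in KO only. The RefSeq windows gave H3K27ac at 1 member in WT and 5 in KO, and ATAC-seq at 8 in KO. Leaving out each ATAC-seq library in turn gave 0 to 1 members with WT only, where 1 is Dnmt3b without KO replicate 2, because KO 1 has no peak there. Inside the genes, equal numbers of peaks reduced the regions from 8 to 4 for H3K27ac, 13 to 6 for MYC and 37 to 14 for ATAC-seq. On starts, a score of at least 100 left H3K27ac at 0 members in WT and 3 in KO, and equal numbers left 3 in KO and 2 in KO only. A window of 1 kb around each start gave MYC at 5 members in KO, all in KO only, with Dnmt3a and Tet3 added. No paired analysis was possible because no test was run on these counts, and the ATAC-seq titles number the second libraries alone. Read depth is unknown and limits every absence.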
